A study of Danio rerio with 6 samples.

Results

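The genes for the proteins of the cytosolic ribosome were examined in heads of embryonic zebrafish (Danio rerio) aged 2 days post fertilization. RNA sequencing counts were available for 3 libraries from homozygous slbp1 mutants, whose titles carry the allele name rw440, and for 3 libraries from wildtype siblings. The labels name no drug, transgene or other allele in either group, and they give neither the lesion of rw440 nor the number of heads behind a library. A gene was taken as a member when its symbol was RPL or RPS followed by a number and at most 1 letter, or was one of the stalk and SA symbols rplp0, rplp1, rplp2 and rpsa. Kinases named rps6k, mitochondrial ribosomal proteins and rps27l were left out. Of 32520 genes in the table, 75 were members, 43 of the large subunit and 32 of the small subunit. A further 11 genes encode ribosome components under other symbols, such as RPL22L1, rplp2l and RACK1, and are described apart.

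The small subunit reads the messenger RNA and the large subunit joins the amino acids. The mRNAs of ribosomal proteins begin with a terminal oligopyrimidine (TOP) tract, through which the mTOR pathway and the RNA-binding protein LARP1 set their translation and stability in vertebrates. Growing and dividing cells make many ribosomes, and loss of single ribosomal proteins impairs tissues unequally, as in the human anaemia named after Diamond and Blackfan. The slbp gene encodes the stem-loop binding protein, which histone mRNAs need for their processing.

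Libraries held between 3421961 and 5395071 counts. The gene with the symbol slbp was measured at 180.4, 144 and 183 CPM (a count as a part of its library total, after TMM scaling by a trimmed mean of log ratios) in mutants 1, 2 and 3. In siblings 1, 2 and 3 it was at 98.1, 104 and 87.2 CPM, so its transcript level was higher in the libraries labelled mutant and does not by itself check that label. As for the label head, 8 genes that mark the posterior trunk and tail summed to 0 CPM in each sibling library and to at most 1.42 CPM in a mutant library, while 16 neuron genes summed to between 1385 and 4375 CPM. Mutant 3 had the lowest TMM factor, 0.788 against 0.959 and 0.998 in the other mutants and 1.04 to 1.14 in siblings. Sibling 1 had the lowest total and the highest share of counts in genes without a symbol, 2.14% against 0.982% to 1.48% elsewhere. The counts of called members and the calls of single members are set beside values without these 2 libraries, and the shares are given library by library.

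Ribosomal protein genes took a larger mean share of the counts in mutants than in siblings, but the groups overlapped for both subunits. Large subunit genes held 7.11%, 6.76% and 9.58% of all counts in mutants 1, 2 and 3, and 5.39%, 7.28% and 6.42% in siblings 1, 2 and 3. Mutant 3 was the highest library and sibling 1 the lowest, while sibling 2 lay above mutants 1 and 2. Apart from mutant 3 and sibling 1, the groups did not separate, as mutants 1 and 2 lay between siblings 3 and 2. Most of the difference in means thus came from those 2 libraries. They are the extremes of their groups, so setting them aside could only shrink it. The means were 7.81% ± 1.54 in mutants and 6.36% ± 0.945 in siblings (SD, n = 3 each), a ratio of 1.23, with p = 0.3 by a two-sided exact permutation test. With 3 libraries against 3 this test cannot give a p under 0.1. In bulk tissue, a change in the number of cells of one type and a change in RNA per cell cannot be told apart. Since no label tells whether a library stands for its own clutch, all p-values reflect library-to-library spread alone, and part of that spread may be technical.

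Small subunit genes followed the same order of libraries. They held 4.70%, 4.53% and 6.65% of counts in mutants 1, 2 and 3, and 3.63%, 4.88% and 4.29% in siblings 1, 2 and 3. Again mutant 3 was highest, sibling 1 lowest, and sibling 2 above the other 2 mutants, which lay above sibling 3. The means were 5.30% ± 1.18 and 4.27% ± 0.627 (SD, n = 3 each; exact permutation p = 0.3, two-sided). Counting error was small at this depth, where the widest 95% Wilson interval of a share spanned 0.062 percentage points.

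**Figure D1:**
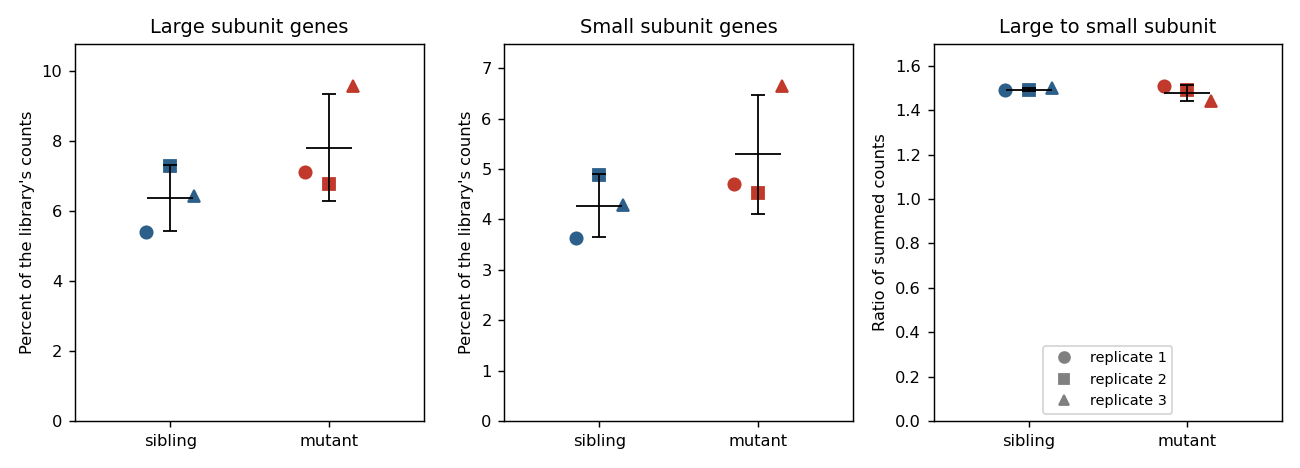
Share of each library's counts in large subunit genes (left) and small subunit genes (middle), in percent, and the ratio of their summed counts (right). Points are the 3 libraries of each group, bars the mean ± SD; mutant 3 stands above all others in both shares, and the ratio stays between 1.44 and 1.51.

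The balance between the subunits differed little. The ratio of large to small subunit counts was 1.51, 1.49 and 1.44 in mutants 1, 2 and 3, and 1.49, 1.49 and 1.5 in siblings 1, 2 and 3. The lowest and the highest value both came from mutant libraries. The group means were 1.48 ± 0.0371 and 1.49 ± 0.0053 (SD, n = 3 each), a difference of -0.00979 (exact permutation p = 0.9, two-sided). This ratio is taken within a library and does not depend on library scaling. The sign of the difference reversed to 0.0108 without mutant 3, and so no direction is drawn from it.

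Per gene, 72 of the 75 members had enough counts to be tested, 42 large and 30 small. The 3 others stayed under 10 counts in every library. RPL26 (ENSDARG00000102317) and rps11l were among them. RPL9 (ENSDARG00000037350) was tested but lay between 3.13 and 6.61 CPM, while no other tested member was under 139 CPM in any library. How reads that fit several near-identical genes were counted is not given in the sources used here, so levels of single members with copies are uncertain.

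Of the tested members, 13 rose in mutants and 0 fell by edgeR's quasi-likelihood test at an adjusted p under 0.05 over all 15561 genes tested. The 13 are 18.1% of the members, beside 12.9% of all tested genes called higher, with 12.8% called lower. At an unadjusted p under 0.05 there were 32 of 72 members, all of them higher, beside 5955 of 15561 genes in either direction. Large subunit genes rose in 10 of 42 cases and small subunit genes in 3 of 30, and the difference between these counts was not tested. The median log2 fold change was 0.57 for both subunits, beside 0.00 over all tested genes. All 72 tested members had a value above 0, from 0.35 for rplp2 to 0.98 for RPL29, while 50.3% of all tested genes did. The middle of the members lay between 0.48 and 0.68, a narrow band beside quartiles of -0.48 and 0.43 over all genes.

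**Figure D2:**
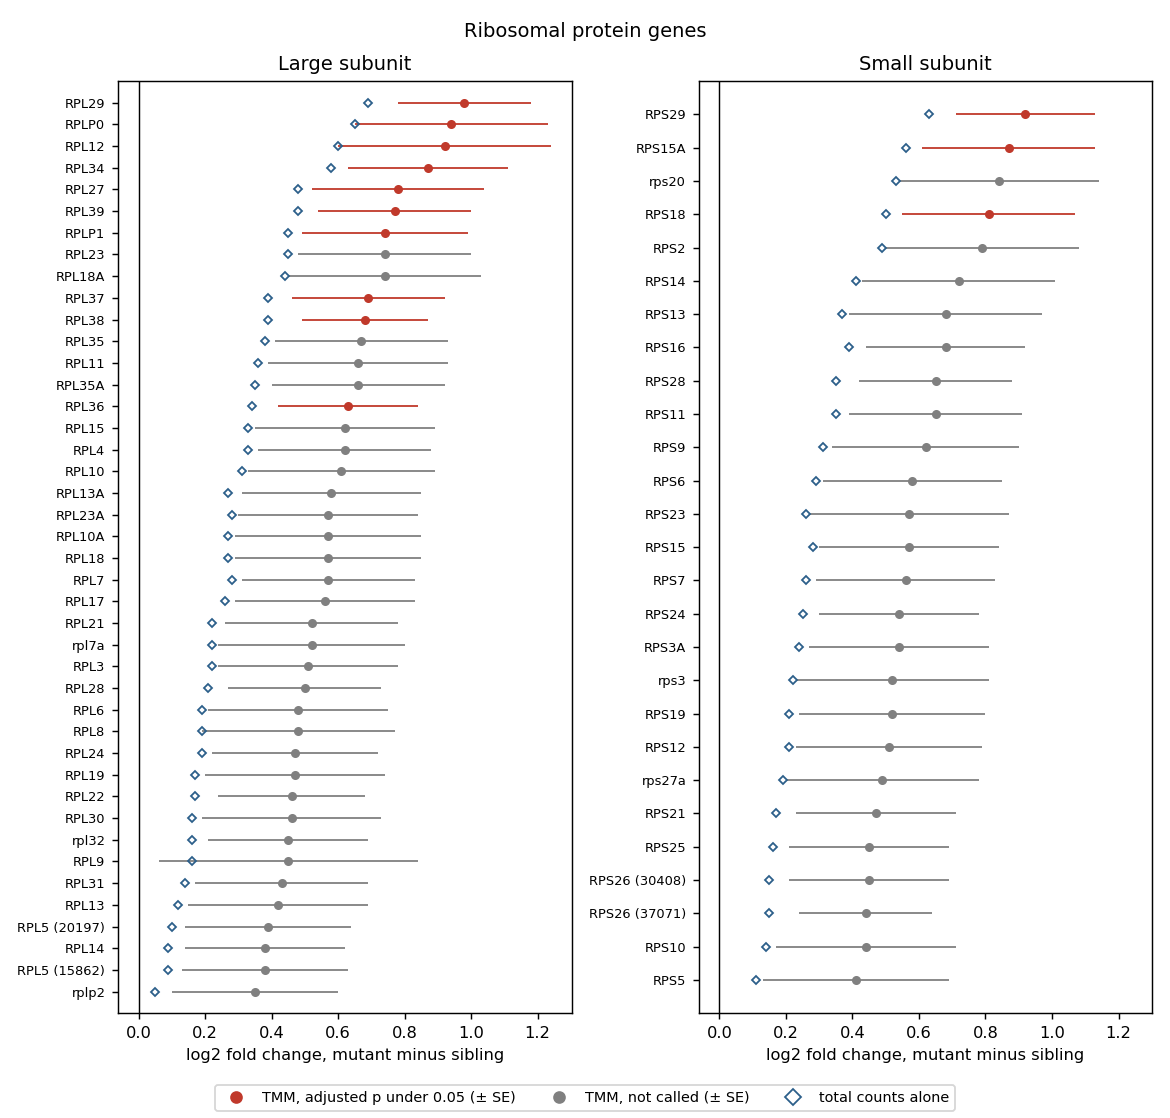
Log2 fold change, mutant minus sibling, of the 42 tested large subunit genes (left) and 27 of the 30 tested small subunit genes (right). Filled points with bars are TMM-scaled estimates ± SE, red where the adjusted p was under 0.05, and open diamonds are the estimates with total counts alone; every filled point drawn lies between 0.35 and 0.98 and the diamonds lie lower.

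Members rose and fell together from library to library, so they are not independent of each other. Relative to the sibling mean, the median member was at 0.32, 0.18 and 1.07 on the log2 CPM scale in mutants 1, 2 and 3, and at -0.29, 0.25 and -0.01 in siblings 1, 2 and 3. Mutant 3 was the highest of the 6 libraries for 72 of 72 tested members, and sibling 1 the lowest for 71 of 72. The 3 mutants lay above the 3 siblings for 25 members, below them for 0 and overlapped for 47. Of all tested genes, 21.8% had every mutant above and 21.8% every mutant below. As percent of total counts, 16 members had every mutant above, 0 had every mutant below and 56 overlapped. The shares over all genes on that scale are not given here. The median member of sibling 2 lay above that of mutant 2.

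**Figure D3:**
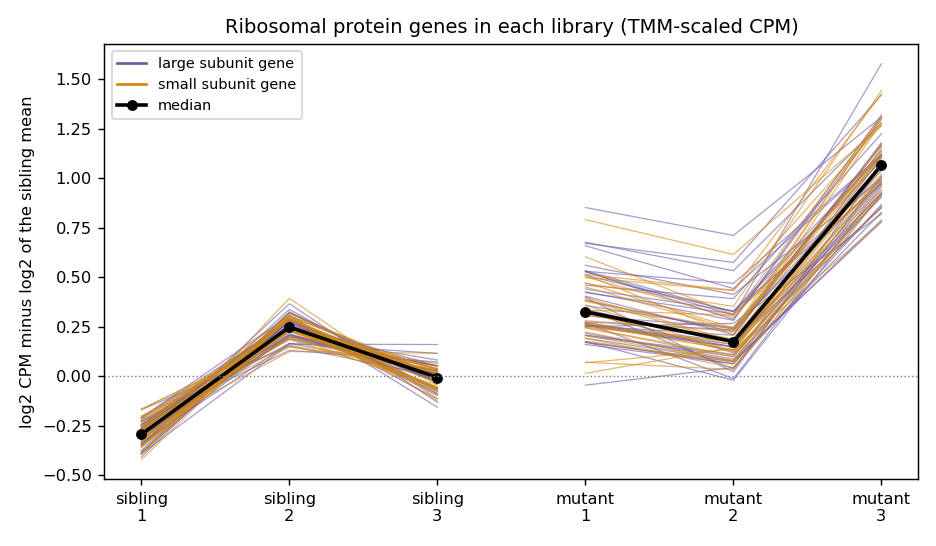
TMM-scaled log2 CPM minus the log2 of the sibling mean for the 71 tested members above 100 CPM, in each library. Thin lines are genes, coloured by subunit, and the black line is their median; nearly all lines share one shape, lowest in sibling 1 and highest in mutant 3.

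RPL29, a large subunit protein, had the highest fold change of all members. It was measured at 298, 270.3 and 409 CPM in mutants 1, 2 and 3 and at 139, 188 and 168 CPM in siblings 1, 2 and 3. Every mutant lay above every sibling. The log2 fold change was 0.98 ± 0.20 (SE), with an adjusted p of 0.00323 in edgeR's quasi-likelihood test. RPS29, a small zinc-binding protein of the small subunit, behaved alike. It was at 322, 285 and 447 CPM in mutants and at 145, 222 and 191 CPM in siblings, in the order of their numbers. These groups did not overlap either, and the log2 fold change was 0.92 ± 0.21 (adjusted p = 0.00737). RPL29 and RPS29 were the only 2 of the 13 called members that kept their call under each of 16 alternatives of scaling to all genes, filter, model and left-out library.

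The stalk of the large subunit, built from RPLP0 with pairs of RPLP1 and RPLP2, recruits the elongation factors. RPLP0 was at 5923, 5541 and 9960.2 CPM in mutants 1, 2 and 3 and at 3075, 4522 and 3557 CPM in siblings 1, 2 and 3. All mutants were above all siblings, and the log2 fold change was 0.94 ± 0.29 (adjusted p = 0.029 by edgeR's quasi-likelihood test). RPLP1 rose by 0.74 ± 0.25 (adjusted p = 0.0441), from 1641 ± 304 to 2737 ± 719.9 CPM (SD, n = 3). RPL12, which sits at the stalk base, was at 2132, 1832 and 4418 CPM in mutants and 1197, 1707 and 1532 CPM in siblings. Mutant 3 was far above the rest, and the call of RPL12 (0.92 ± 0.32, adjusted p = 0.0495) was lost without mutant 3, when its adjusted p was 0.15. The call of RPLP1 was lost without mutant 3 as well (adjusted p = 0.0834), and that of RPLP0 was kept (0.0417). Without sibling 1 all 3 calls were lost, at adjusted p of 0.122 for RPLP0, 0.154 for RPLP1 and 0.171 for RPL12.

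The second stalk protein has 2 genes, which differed in their estimates. For rplp2, the levels were 298, 317 and 561 CPM in mutants 1, 2 and 3 and 244, 345 and 333 CPM in siblings 1, 2 and 3. These overlapped, and rplp2 had the lowest fold change of all tested members (0.35 ± 0.25, adjusted p = 0.322). Its paralogue rplp2l was at 1138, 1143 and 1938 CPM in mutants and 628, 1021 and 828 CPM in siblings, without overlap. It rose by 0.77 ± 0.26 (adjusted p = 0.0470 by edgeR's quasi-likelihood test), a call lost without mutant 3 (0.123) and without sibling 1 (0.178).

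Among other large subunit proteins, RPL34 rose by 0.87 ± 0.24 (adjusted p = 0.0178), from 415, 608 and 558 CPM in siblings 1, 2 and 3 to 843, 763 and 1279 CPM in mutants 1, 2 and 3. RPL38, which in the mouse is needed for the translation of Hox mRNAs in the axial skeleton, was at 155, 199 and 191 CPM in siblings and 268, 242 and 362 CPM in mutants. It rose by 0.68 ± 0.19 (adjusted p = 0.019). RPL39, at the tunnel through which the new protein leaves, rose by 0.77 ± 0.23 (adjusted p = 0.0292). For all 3 genes the groups did not overlap. RPL27, RPL36 and RPL37 rose by 0.78, 0.63 and 0.69 with adjusted p between 0.0429 and 0.0455. Without sibling 1 none of these 6 calls held, with RPL34 and RPL38 at adjusted p of 0.0851 and 0.0873 and the other 4 between 0.123 and 0.166. Without mutant 3, RPL34 and RPL38 kept their calls (0.0342 and 0.0462), while RPL39 was at 0.0605 and RPL27, RPL36 and RPL37 were between 0.113 and 0.142.

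In the small subunit, RPS15A was at 360.4, 466 and 387 CPM in siblings 1, 2 and 3 and at 578, 547 and 1087 CPM in mutants 1, 2 and 3. It rose by 0.87 ± 0.26 (adjusted p = 0.0267), without overlap. RPS18, at the head of the small subunit, rose by 0.81 ± 0.26 (adjusted p = 0.0391). Both calls were lost without mutant 3 (adjusted p = 0.0676 for RPS15A and 0.106 for RPS18) and without sibling 1 (0.102 and 0.151). RPS2, close to the path of the mRNA, had a slightly lower estimate (0.79 ± 0.29) and an adjusted p of 0.0659.

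Other members were taken for their known roles, whatever their values. RPL5 and RPL11 carry the 5S ribosomal RNA and, when free, hold the p53 ligase Mdm2. The 2 RPL5 genes had log2 fold changes of 0.38 and 0.39 (adjusted p = 0.289 and 0.267), and RPL11 one of 0.66 (adjusted p = 0.089). RPS19, the gene most often mutated in Diamond-Blackfan anaemia, was at 687, 720.4 and 1409 CPM in mutants 1, 2 and 3 and at 520.1, 799 and 646 CPM in siblings 1, 2 and 3. Only mutant 3 stood apart there, and the estimate was 0.52 ± 0.28 (adjusted p = 0.197). RPS6, the substrate of the S6 kinases, had an estimate of 0.58 ± 0.27 (adjusted p = 0.131). The values were 0.58 ± 0.27 for RPL13A, which represses inflammatory mRNAs in human cells, and 0.49 ± 0.29 for rps27a, made as a fusion to ubiquitin (adjusted p = 0.135 and 0.241).

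The 11 components under other symbols had estimates of similar size, from 0.31 for rps27.2 to 0.86 for RPL22L1. Their median log2 fold change was 0.68, and 2 of 11 rose, rplp2l and RPL22L1, with 0 lower, beside 12.9% of all tested genes called higher. FAU, made as a fusion to a ubiquitin-like protein, had an estimate of 0.44 (adjusted p = 0.255). RACK1, a signalling scaffold on the small subunit, and RPSA2 had estimates of 0.68 and 0.75 (adjusted p = 0.103 and 0.0858). Without sibling 1 the count of called genes went from 2 to 0 (background 8.37%), and without mutant 1 or sibling 3 to 1 (backgrounds 9.81% and 9.13%). Without mutant 3 it was again 2 (background 10.9%), but these were RPL22L1 and faub (adjusted p = 0.0186 and 0.045).

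The count of called members depended on how the libraries were scaled, and also on the model, the filter and the threshold. TMM assumes that most genes do not change, and it set the median of all genes at 0.00. With total counts alone, the median of all genes was -0.26 and that of the members 0.27, so the members stood 0.53 above all genes, close to the 0.57 under TMM. A scaling factor moves every gene of a library alike, so this gap could hardly have changed. With total counts alone 5 members were called higher, 6.94% beside a background of 7.04%, and 0 lower. These were RPL29, RPLP0, RPL34, RPS15A and RPS29. Size factors of the RLE kind gave 14 called members (background 13.1%) and upper-quartile factors 9 (background 11.9%), with medians of 0.57 and 0.53. Leaving the members out when TMM factors were computed gave 14 (background 13.1%) and a median of 0.57, so this step hardly moved the TMM-scaled library sizes. DESeq2 called 31 members (background 13.1%) and limma-voom 13 (background 12.7%). In edgeR, the fit without a filter on low counts called 26 of 75 (background 9.58%). At an adjusted p under 0.01 there were 2 (background 7.00%), RPL29 and RPS29, and with a block for the replicate number 17 (background 16.0%).

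The same count depended on single libraries. Without mutant 3 the median of the members was 0.26 and 5 of 72 were called (6.94%, background 10.9%). Without sibling 1 the median was 0.44 and 2 were called (2.78%, background 8.37%). Leaving out mutant 1, sibling 2 or sibling 3 gave 6, 6 and 2 calls (backgrounds 9.81%, 9.91% and 9.13%), and leaving out mutant 2 gave 21 (background 11.9%). With total counts alone, the counts without mutants 1, 2 and 3 were 3, 9 and 3 (backgrounds 4.88%, 5.58% and 7.47%). Those without siblings 1, 2 and 3 were 1, 4 and 2 (backgrounds 4.60%, 5.15% and 5.10%). Without mutant 3 and sibling 1 together, the median was 0.12, 62 of 72 members were above 0 and 2 were called (background 9.54%), RPL29 at 0.67 ± 0.16 and RPS29 at 0.55 ± 0.16. With total counts alone and those 4 libraries, the median was -0.02, 33 of 72 members were above 0, and RPLP0, RPL29 and RPS29 were called (background 7.09%). The median of all tested genes in that fit was -0.14, so the members stood 0.12 above it, the same gap as under TMM, which a change of scaling could hardly alter. Mutant 3 was the highest and sibling 1 the lowest library for nearly all members, so leaving both out could only bring the estimate down. The sign of the group median thus rested on those 2 libraries under this scaling, and the direction of RPLP0, RPL29 and RPS29 did not.

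**Figure D4:**
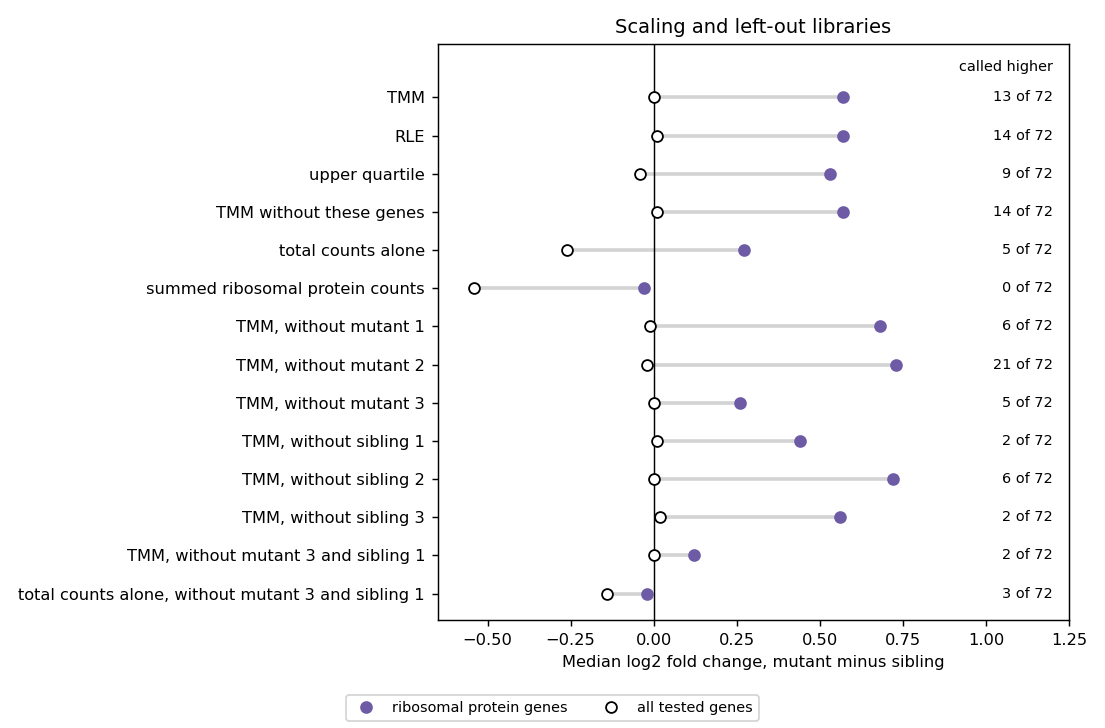
Median log2 fold change, mutant minus sibling, of the ribosomal protein genes (filled) and of all tested genes (open) under each scaling and with libraries left out, with the number of members called higher at the right. The filled points run from 0.73 without mutant 2 to -0.03 when libraries are scaled to the summed ribosomal protein counts.

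Markers of cell state and cell type also differed between the groups. Proliferation genes summed to 10835, 10592 and 14068 CPM in mutants 1, 2 and 3 and to 3912, 5509 and 4959.7 CPM in siblings 1, 2 and 3. Of 17 tested, 16 rose and 0 fell (backgrounds 12.9% and 12.8%), with a median log2 fold change of 1.21. Neuron genes summed to 2335, 2082 and 1385 CPM in mutants and 4375, 3652 and 3331 CPM in siblings, and 13 of 15 fell. Photoreceptor genes summed to between 99.2 and 132 CPM in mutants and between 988 and 1289 CPM in siblings, and 9 of 12 fell. Skeletal muscle genes summed to between 37.5 and 76.2 CPM in mutants and between 150.1 and 273 CPM in siblings, and 7 of 9 fell. Of 9 lens genes 0 were called either way, and their sum was highest in sibling 1, at 5996 CPM against 2872 to 4821 CPM elsewhere. Mutant 3 had the most proliferation and the least neuron transcript of the 6 libraries, and sibling 1 the reverse, with no gene of either list at 0. Sibling 2 was above mutant 2 in summed ribosomal protein CPM (117971 and 113826) and below it in proliferation genes (5509 and 10592 CPM). On the TMM scale the libraries of each group had the same order in both sums. From low to high this was siblings 1, 3 and 2, and mutants 2, 1 and 3. Mutants 1 and 2 were close in proliferation genes. Their TMM factors were 0.959 and 0.998, so their order in that sum depends on the scaling. The part of these cell types in the ribosomal protein values was not tested.

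Scaling each library to its summed ribosomal protein counts shows which members changed their share within the group, whatever the library scaling. On this scale the members ran from -0.26 to 0.41, and edgeR's quasi-likelihood test called 0 higher and 0 lower (backgrounds of 2.58% and 16.3%). That test draws the spread of a gene partly from all tested genes. Its errors can thus exceed the members' own spread, as for RPLP0 below, and the 0 calls do not show that shares were unchanged. An unadjusted p under 0.05 was found for 1 of 72 members, beside 5176 of 15561 genes, and limma-voom called 1 (background 2.35%). All mutants lay above all siblings in share for 10 members (5.47% of all genes) and below for 14 (34.5% of all genes). Because the members' own sum sets this scale, their values lie near 0 by construction (median -0.03), while the median of all tested genes was -0.54. The backgrounds carry that shift, so setting the members beside them does not tell whether members changed less than other genes. The middle of the members lay between -0.11 and 0.09, so within the group most genes differed by far less than the group's own spread between libraries.

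The member with that unadjusted p was RPLP0, which made up 4.79%, 4.87% and 4.82% of the ribosomal protein counts in mutants 1, 2 and 3, and 3.85%, 3.83% and 3.72% in siblings 1, 2 and 3. The libraries fell into tight and separate groups, with means of 4.82% ± 0.0412 and 3.80% ± 0.0686 (SD, n = 3). Its log2 fold change relative to the group was 0.34 ± 0.15, with an adjusted p of 0.0963 in edgeR's quasi-likelihood test and of 0.0157 in limma-voom. Without mutant 3 it was 0.34 ± 0.10 with an adjusted p of 0.00905, the only member called in that fit (background 4.49%). Leaving out mutant 1, mutant 2 or any single sibling instead gave 0 members called higher, where 325 to 367 of all tested genes were. Without mutant 1, mutant 2, sibling 2 or sibling 3, 0 members had an unadjusted p under 0.05. RPS2 held 6.39%, 6.63% and 6.52% in mutants and 5.84%, 5.81% and 5.50% in siblings, also without overlap. In the other direction, the 2 RPL5 genes held 1.38% ± 0.074 and 1.03% ± 0.0358 in mutants beside 1.59% ± 0.0379 and 1.18% ± 0.0301 in siblings (SD, n = 3).

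Where a protein has 2 genes, the share of each within the pair needs no library scaling at all. Among members, the first RPL5 gene (ENSDARG00000015862) gave 57.3% ± 0.481 of the pair in mutants and 57.3% ± 0.555 in siblings (SD, n = 3; exact permutation p = 1.0). The shares of RPS26 (ENSDARG00000030408) were 76.3% ± 1.63 and 76.4% ± 1.16 (SD, n = 3; exact permutation p = 0.9). In both pairs the groups overlapped.

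Among pairs with a paralogue under another symbol, several had groups that did not overlap. RPL22L1 made up 34.1%, 35.9% and 35.6% of its sum with RPL22 in mutants 1, 2 and 3, and 28.8%, 29.1% and 29.7% in siblings 1, 2 and 3. In the mouse, Rpl22 represses its paralogue Rpl22l1. RPL22L1 itself rose by 0.86 ± 0.21 (adjusted p = 0.00997 by edgeR's quasi-likelihood test), while RPL22 had an estimate of 0.46 ± 0.22 (adjusted p = 0.137). The share of rplp2 with rplp2l was 20.8%, 21.7% and 22.4% in mutants and 28.0%, 25.3% and 28.7% in siblings. That of rps27.2 with rps27.1 was 31.3%, 31.5% and 30.9% in mutants and 34.8%, 33.2% and 33.6% in siblings. The gene rps27l made up 3.79%, 3.44% and 1.99% of its sum with rps27.1 and rps27.2 in mutants, and 0.636%, 1.23% and 1.06% in siblings. In each of these comparisons the groups did not overlap, which is the smallest exact permutation p of 0.1. Adjusted over the 9 pairs compared, it was 0.225. In the pair of faub and FAU the groups overlapped, with faub at 1.28% ± 0.526 in mutants and 0.964% ± 0.452 in siblings (SD, n = 3; exact permutation p = 0.5).

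**Figure D5:**
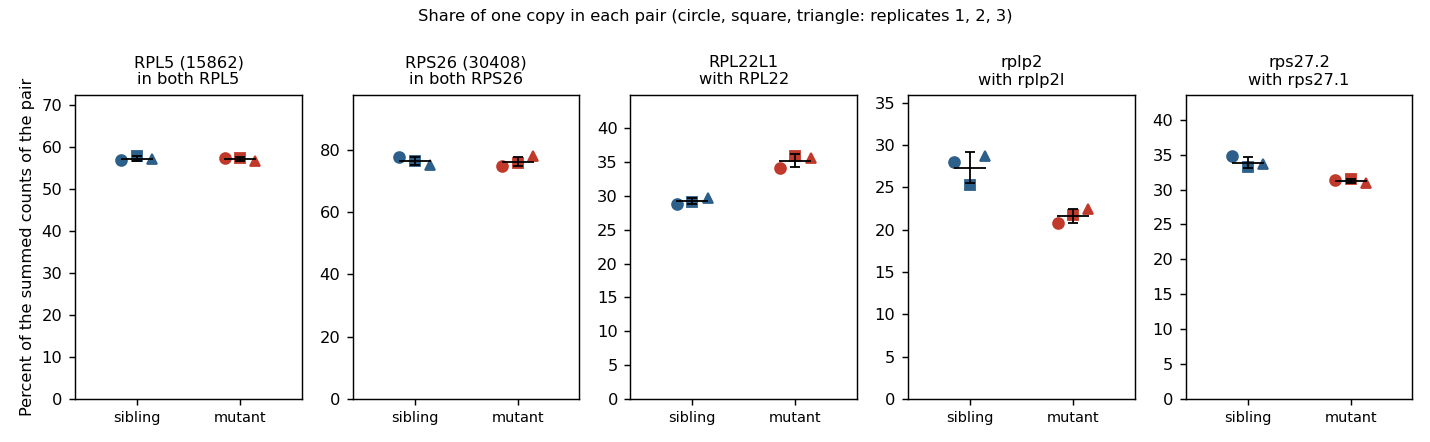
Share of the first gene in the summed counts of a pair, in percent, for 2 pairs of members and 3 pairs with a paralogue under another symbol. Points are libraries and bars the mean ± SD of 3; the groups overlap for RPL5 and RPS26 and are apart for RPL22L1, rplp2 and rps27.2.

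The gene rps27l, which the rule left out and whose human counterpart is a p53 target, stood apart from the group. It was at 47.2, 38.6 and 41.8 CPM in mutants 1, 2 and 3 and at 5.69, 15.9 and 11.4 CPM in siblings 1, 2 and 3. All mutants were above all siblings, and mutant 3 was not the highest. It rose by 1.92 ± 0.29 (adjusted p = 0.000508), and by 1.48 ± 0.42 relative to the summed ribosomal protein counts (adjusted p = 0.0113 by edgeR's quasi-likelihood test). Its call held without mutant 3 and sibling 1 together, at 1.65 ± 0.24.

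Of 15 elongation and termination factors tested, 6 rose and 0 fell (backgrounds 12.9% and 12.8%). Their median was 0.60, with estimates from -0.87 to 1.18. Scaled by total counts alone, 3 were higher (background 7.04%) and 1 lower (2787 of 15561 over all genes), with a median of 0.31. The release factor ETF1 was at 436, 357 and 455 CPM in mutants 1, 2 and 3 and at 257, 239 and 238 CPM in siblings 1, 2 and 3, without overlap. It rose by 0.77 ± 0.17 (adjusted p = 0.00566 by edgeR's quasi-likelihood test), and EIF5A2 by 0.76 ± 0.18 (adjusted p = 0.00877). The gene eef2a.1 rose by 1.18 ± 0.31 (adjusted p = 0.0148) from levels of 7.5 to 12.2 CPM in siblings. Its call was lost without mutant 3 (adjusted p = 0.0505 by the same test) and without sibling 1 or sibling 3. Of the main elongation factor genes, eef1a1l1 and eef2b had estimates of 0.48 and 0.68 (adjusted p = 0.229 and 0.0935). Single left-out libraries gave between 2 and 6 higher calls (backgrounds 8.37% to 11.9%). There were 2 without sibling 1 or sibling 3 and 3 without mutant 3. The gene called lower with total counts and without mutant 3 was EEF1A1 (ENSDARG00000039502), at -0.87 ± 0.34 under TMM (adjusted p = 0.0803), with adjusted p of 0.0313 and 0.0347 in those fits. There was also 1 lower call without mutant 2 or sibling 2 (1811 and 1512 lower over all genes).

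Of 44 initiation factors, 9 rose and 1 fell, with a median of 0.32, beside 12.9% of all tested genes called higher and 12.8% lower. These counts became 5 higher (background 7.04%) and 2 lower (2787 of 15561 over all genes) with total counts alone, and the median 0.04. The scanning factor eif1axa rose by 1.12 ± 0.21 (adjusted p = 0.00255), from 30.8, 39.1 and 31.5 CPM in siblings 1, 2 and 3 to 79.4, 51.1 and 89.7 CPM in mutants 1, 2 and 3. The 2 EIF3J genes moved in opposite directions, ENSDARG00000012603 by 0.95 ± 0.20 and ENSDARG00000053370 by -0.61 ± 0.20 (adjusted p = 0.00401 and 0.038). An EIF3B gene (ENSDARG00000074213) was at 3.01, 4.33 and 9.68 CPM in mutants and at 0, 0 and 0.519 CPM in siblings. Its adjusted p was 0.00188, and no fold is given because 3 counts correspond to between 0.519 and 0.776 CPM. Without sibling 1 or sibling 3 there were 4 and 5 higher calls (backgrounds 8.37% and 9.13%). The lower call was lost without mutant 1, mutant 2, sibling 1 or sibling 3.

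Of 13 genes with abundant TOP mRNAs or roles at the nascent chain, 3 rose and 0 fell (backgrounds 12.9% and 12.8%). Their median was 0.48. The list shares eef1a1l1 and eef2b with the elongation factors, pabpc1a with the initiation factors and npm1a with the assembly factors. On total counts alone, 1 was higher (background 7.04%), with a median of 0.20. NAP1L1, a histone chaperone whose mRNA carries a TOP tract, was at 1559, 1559 and 1893 CPM in mutants 1, 2 and 3 and at 673, 954 and 743 CPM in siblings 1, 2 and 3. It rose by 1.08 ± 0.21 (adjusted p = 0.0031), and SSR4 and npm1a by 0.70 and 0.65 (adjusted p = 0.012 and 0.0289). With total counts alone the calls of SSR4 and npm1a were lost (adjusted p = 0.0771 and 0.0897 by edgeR's quasi-likelihood test). That of npm1a was also lost without mutant 3 (0.0668), and both were lost without sibling 1 or sibling 3. Without sibling 1 or sibling 3 there was 1 call (backgrounds 8.37% and 9.13%), and 2 without mutant 1 or mutant 3 (9.81% and 10.9%).

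Of 25 tested genes of the mTOR pathway, the LARP family and the rps6k kinases, 3 rose and 3 fell (backgrounds 12.9% and 12.8%), with a median of -0.08. Not all of them are known regulators of TOP mRNAs. Both counts were thus near the share over all genes. With total counts alone 1 was higher (background 7.04%) and 4 lower (2787 of 15561 over all genes). The median was then -0.33 beside -0.26 over all genes. EIF4EBP3 (ENSDARG00000041607), a repressor of cap-dependent initiation, rose by 1.54 ± 0.33 (adjusted p = 0.00559). It went from 7.5, 14.8 and 16.6 CPM in siblings 1, 2 and 3 to 31.5, 26.5 and 56.7 CPM in mutants 1, 2 and 3. A second gene of that name, eif4ebp3 (ENSDARG00000054916), had means of 3.41 CPM in mutants and 4.33 CPM in siblings. Its estimate was -0.36 ± 0.43 (adjusted p = 0.578). The mTOR activator rheb fell by 1.24 ± 0.25 on the log2 scale (adjusted p = 0.00381), from 33.6, 23.4 and 21.6 CPM in siblings to 13.0, 10.7 and 9.45 CPM in mutants. LARP6, taken with the LARP family, changed by -0.68 ± 0.19 (adjusted p = 0.0219), a call lost without mutant 2, sibling 1 or sibling 2. LARP1 changed by 0.52 ± 0.17 (adjusted p = 0.0383 by edgeR's quasi-likelihood test). Its call was lost with total counts alone (0.25, adjusted p = 0.212) and without mutant 3 (adjusted p = 0.0607). Higher calls numbered 1 without any one of mutant 1, mutant 3 or the 3 siblings (backgrounds 8.37% to 10.9%). Lower calls numbered between 1 and 2 in every leave-one-out fit, where 1158 to 1811 of all genes were lower.

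Of 33 chaperones and assembly factors of ribosomal proteins, 8 rose and 0 fell (backgrounds 12.9% and 12.8%), with a median of 0.39. Total counts alone gave 4 higher (background 7.04%) and 1 lower (2787 of 15561 over all genes), with a median of 0.11. Fibrillarin (FBL), which methylates ribosomal RNA, was at 317, 294 and 426 CPM in mutants 1, 2 and 3 and at 165, 211 and 170.5 CPM in siblings 1, 2 and 3, and rose by 0.93 ± 0.19 (adjusted p = 0.00366). The RPS26 chaperone tsr2 rose by 0.93 ± 0.20 (adjusted p = 0.00429), and RRS1, which in yeast helps load the 5S particle, by 0.80 ± 0.17 (adjusted p = 0.00491). The count was 13 without mutant 2 (background 11.9%), 4 without mutant 3 or sibling 1 (10.9% and 8.37%), and 3 without sibling 3 (9.13%).

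Mitochondrial ribosomal proteins, the other ribosome of the cell, had a lower median of 0.28, and 6 of 75 rose with 0 lower. The background of genes called higher was 12.9%. The gene mrps18b was at 27.8, 26 and 31.6 CPM in mutants 1, 2 and 3 and at 13.7, 12.7 and 13.3 CPM in siblings 1, 2 and 3, and rose by 1.1 ± 0.21 (adjusted p = 0.00244). MRPS30 rose by 0.98 ± 0.24 and mrpl36 by 0.88 ± 0.25 (adjusted p = 0.00996 and 0.0215). The call of mrpl36 was lost with total counts alone and without mutant 3 (adjusted p = 0.0939 and 0.0824 by edgeR's quasi-likelihood test). It was also lost without sibling 1 or sibling 3. The median of the cytosolic members was 0.57 beside the 0.28 of this list, and this difference between the lists was not tested. The count of 6 was 14 without mutant 2 (background 11.9%) and 3 without mutant 1 (9.81%). It was 2 without mutant 3, sibling 1 or sibling 3 (10.9%, 8.37% and 9.13%). Under total counts alone it was 2 (background 7.04%), with a median of 0.01.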

How the data were processed

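RNA sequencing counts of 6 zebrafish head libraries, 3 slbp1 mutant and 3 wildtype sibling, were used. The values the authors deposited are raw counts, whole numbers for each Ensembl gene. HISAT2, featureCounts and the genome build GRCz11 are named per the submitters' processing notes. For tool versions, annotation release, strand setting and multiply mapped reads, the choice is not given in the sources used here. A reference table gave symbols for 29201 genes (89.8%), which held 98.7% of the counts.

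The 2 groups were compared in R 4.3.3 with edgeR 4.0.16 (filterByExpr, TMM, robust quasi-likelihood test, two-sided, Benjamini-Hochberg over all tested genes, threshold 0.05). CPM values use TMM-scaled library sizes, errors of log2 fold changes are standard errors, and signs are mutant minus sibling. Shares and ratios were compared by exact permutation tests in scipy 1.17.1. Wilson intervals and the floor of 3 counts cover counting error only. The procedure was tested on simulated data.

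Alternatives were other size factors, filters, DESeq2 1.42.0, limma-voom (limma 3.58.1), a replicate block, a threshold of 0.01, fewer members and left-out libraries. The members and gene lists were chosen with earlier results of these data known. Named members are up to 8 called members with the highest and 8 with the lowest fold change, up to 5 each way relative to the ribosomal protein sum, all paired copies, and members taken by role: the stalk, RPL5, RPL11, RPS6, RPS19, RPL22, RPS27A and RPL13A. Other lists give up to 3 called genes by lowest p. RPS2, rps27l, RPL26, RPL9, rps11l, EEF1A1, eef1a1l1, eef2b, pabpc1a, LARP1 and the second eif4ebp3 gene were named after their values were seen. Some genes that the rule takes are not reported here. No sequence is printed, as no table of these genes' sequences was at hand.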

Additional observations from a re-analysis of the deposited data

How the results depend on the processing

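The difference in large to small subunit count ratio reversed to 0.00609 without the 5 most abundant members, to 0.0136 as a difference of mean log2 CPM, and ran from -0.0251 to 0.0108 when single libraries were left out. With the replicate number as a block, 17 members and 5059 genes were called. Correlations of same-numbered libraries, after taking off the group means, were 0.24, 0.09 and 0.18. Values for differently numbered libraries are not given here, so these do not decide whether the numbers are a pairing. The labels state no pairing, and the main fit used none. Against 13 members called higher, there were 5 with total counts alone, 0 relative to the ribosomal protein sum, 26 with no low-count filter, 31 with DESeq2, 2 at a threshold of 0.01 and 2 to 21 with single libraries left out. With total counts alone and single libraries left out there were 1, 2, 3, 4 or 9. Without mutant 3 and sibling 1 there were 2 with TMM and 3 with total counts alone. These fits of total counts with left-out libraries, the pair of left-out libraries and limma-voom on the ribosomal protein scale were chosen after seeing the data. The median log2 fold change of ribosomal protein genes moved from 0.57 to 0.26 and 0.73 at the ends of the leave-one-out range, to -0.03 relative to their own sum, to 0.09 and 0.18 with total counts without mutant 3 or sibling 1, and to 0.12 and -0.02 without both libraries. Over all genes, 4004 calls became 2052 at a threshold of 0.01 and 2521 to 3763 with single libraries left out. Relative to the ribosomal protein sum 2934 calls became 1421 to 3523, and 0 member calls became 1 with limma-voom and 0 to 1 with left-out libraries. No member was called lower in any setting (0 calls). The causes were not tested.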
